A study of Mus musculus with 4 samples.

Results

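The NKR-P1 receptors and the Clec2 proteins that they bind were compared between natural killer (NK) cells and T cells taken from CT26 tumours. CT26 is a colon carcinoma line of BALB/c origin, and 500000 live cells were placed under the skin of BALB/c mice, which all groups share. The 4 libraries are 2 of intratumoral NK cells and 2 of intratumoral T cells, isolated by flow sorting with no stated gate, treatment or age. Pool 1 of each cell type came from 4 mice and pool 2 from 6, so a replicate is a pool of animals. The members are the 6 genes Klrb1a, Klrb1b, Klrb1c, Klrb1f, Clec2d and Clec2i, found by their symbol among 55450 rows of the deposited table. No member shared its symbol with another row, and all 6 passed the filter on low values among 12105 genes tested.

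NKR-P1 receptors are lectin-like membrane proteins of NK cells and of some T cells. Unlike the Ly49 receptors they do not read classical class I molecules, but bind Clr proteins, which are encoded by Clec2 genes interspersed with the receptor genes themselves in the NK gene complex. NKR-P1B (Klrb1b) is inhibitory and recognises Clr-b (Clec2d), a protein found on many haematopoietic cells whose loss makes a cell a target. NKR-P1A (Klrb1a), NKR-P1C (Klrb1c) and NKR-P1F (Klrb1f) are classed as stimulatory, and NKR-P1F recognises Clr-g (Clec2i).

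All 6 genes lie on chromosome 6 (GRCm38). Klrb1a (ENSMUSG00000030361.16) spans 128609227 to 128623533, Klrb1c (ENSMUSG00000030325.16) 128778485 to 128789215 and Klrb1b (ENSMUSG00000079298.9) 128813706 to 128826331, each on the minus strand. Clec2i (ENSMUSG00000030365.11) spans 128887588 to 128898167, Klrb1f (ENSMUSG00000030154.10) 129045901 to 129057464 and Clec2d (ENSMUSG00000030157.5) 129180615 to 129186534, each on the plus strand. The receptor and ligand genes are therefore interleaved along one stretch, with Clec2i between Klrb1b and Klrb1f.

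The 250 bases before the RefSeq start of each member (GRCm38.p6, read on the gene's own strand) are shown because both NK libraries lay above both T libraries in each receptor gene and in neither ligand gene. Capitals mark matches, on either strand, to AGGAAG, a form of the ETS family site, and to TGTGGT, a form of the RUNX family site. In Klrb1c a pair of AGGAAG matches overlap each other. AGGTGT, a form of the T-box site, was searched on both strands as well.
Klrb1c, chr6:128788642-128788891, minus strand: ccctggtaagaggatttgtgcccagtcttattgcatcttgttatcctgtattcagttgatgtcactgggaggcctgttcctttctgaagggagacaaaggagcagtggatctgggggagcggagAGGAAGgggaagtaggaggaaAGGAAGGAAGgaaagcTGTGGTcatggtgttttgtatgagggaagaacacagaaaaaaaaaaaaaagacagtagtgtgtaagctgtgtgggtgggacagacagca
Klrb1a, chr6:128622935-128623184, minus strand: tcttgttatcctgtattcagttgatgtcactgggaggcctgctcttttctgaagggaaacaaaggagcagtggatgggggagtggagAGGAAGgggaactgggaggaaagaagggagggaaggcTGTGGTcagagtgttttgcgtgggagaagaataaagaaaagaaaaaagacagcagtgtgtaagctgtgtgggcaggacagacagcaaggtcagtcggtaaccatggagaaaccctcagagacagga
Klrb1b, chr6:128826316-128826565, minus strand: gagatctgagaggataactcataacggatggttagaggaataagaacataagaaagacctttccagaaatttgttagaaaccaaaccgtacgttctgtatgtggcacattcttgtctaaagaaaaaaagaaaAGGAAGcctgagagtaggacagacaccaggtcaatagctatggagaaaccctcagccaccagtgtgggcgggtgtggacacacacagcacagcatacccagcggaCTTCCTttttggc
Klrb1f, chr6:129045651-129045900, plus strand: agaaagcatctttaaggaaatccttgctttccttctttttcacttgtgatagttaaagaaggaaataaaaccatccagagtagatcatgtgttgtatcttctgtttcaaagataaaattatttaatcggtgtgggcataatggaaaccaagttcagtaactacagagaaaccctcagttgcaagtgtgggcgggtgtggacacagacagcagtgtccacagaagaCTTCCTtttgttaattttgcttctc
Clec2d, chr6:129180365-129180614, plus strand: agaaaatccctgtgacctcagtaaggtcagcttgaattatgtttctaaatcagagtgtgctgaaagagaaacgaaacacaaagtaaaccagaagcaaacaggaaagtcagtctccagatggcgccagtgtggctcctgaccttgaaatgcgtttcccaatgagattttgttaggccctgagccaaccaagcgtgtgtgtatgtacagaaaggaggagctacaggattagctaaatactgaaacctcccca
Clec2i, chr6:128887337-128887586, plus strand: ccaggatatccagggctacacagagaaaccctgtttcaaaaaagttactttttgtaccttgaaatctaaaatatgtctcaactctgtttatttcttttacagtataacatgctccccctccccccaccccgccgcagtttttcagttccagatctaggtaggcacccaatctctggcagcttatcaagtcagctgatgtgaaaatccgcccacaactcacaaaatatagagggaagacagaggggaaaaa

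AGGAAG was found in the windows of all 4 receptor genes, with 3 matches in Klrb1c, 2 in Klrb1b and 1 each in Klrb1a and Klrb1f, and in neither ligand window. The split did not extend over the whole family, as the receptor gene Klrb1 had 0 matches and the ligand-family genes Clec2e, Clec2g and Clec2h had 1 each. The ligand-family genes Clec2l and Clec2m had 0. Over 27025 promoters of the same length, 29.15% held it. TGTGGT was found in Klrb1a and Klrb1c alone, against 14.18% of all promoters. AGGTGT was in none of the 6 windows, against 11.99% of all promoters, while Klrb1 had 2 matches to it. The windows of Klrb1a and Klrb1c were 89.5% identical over the 84.0% of bases that aligned. The other receptor pairs reached 57.5% to 66.9%, and Clec2d and Clec2i 58.8%. The windows of Klrb1a and Klrb1c lie within the gene spans given above, downstream of the start in that annotation. Annotated exons cover 16 bases of the Klrb1b window and 5 of the Klrb1c window. These matches describe the C57BL/6 reference, not the BALB/c genome of the mice, and say nothing of binding.

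The receptor transcripts were carried by the NK cells, whereas the ligand transcripts were found at low levels in both cell types. Klrb1a, Klrb1c and Klrb1f were higher in NK cells (limma, Benjamini-Hochberg adjusted p under 0.05), 3 of 6 members, while 0 were higher in T cells. Over all genes tested 1.22% were called higher in NK cells, and 1.09% were called on the T side. The median log2 fold change was 5.08 for the 4 receptors and 0.43 for the 2 ligands, against 0.02 for all genes tested. The receptor median lies between Klrb1a and Klrb1f, so setting Klrb1b at its bound left it unchanged by construction. Unless stated, a value is a read count divided by the TMM-scaled library size, per 1 M (normalized CPM, from libraries of 2067728 to 2893240 reads), and a log2 fold change is the NK mean less the T mean of log2(value + 1), a scale that understates the change of low genes. In bulk libraries, fewer expressing cells and less RNA per cell cannot be told apart.

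**Figure D1:**
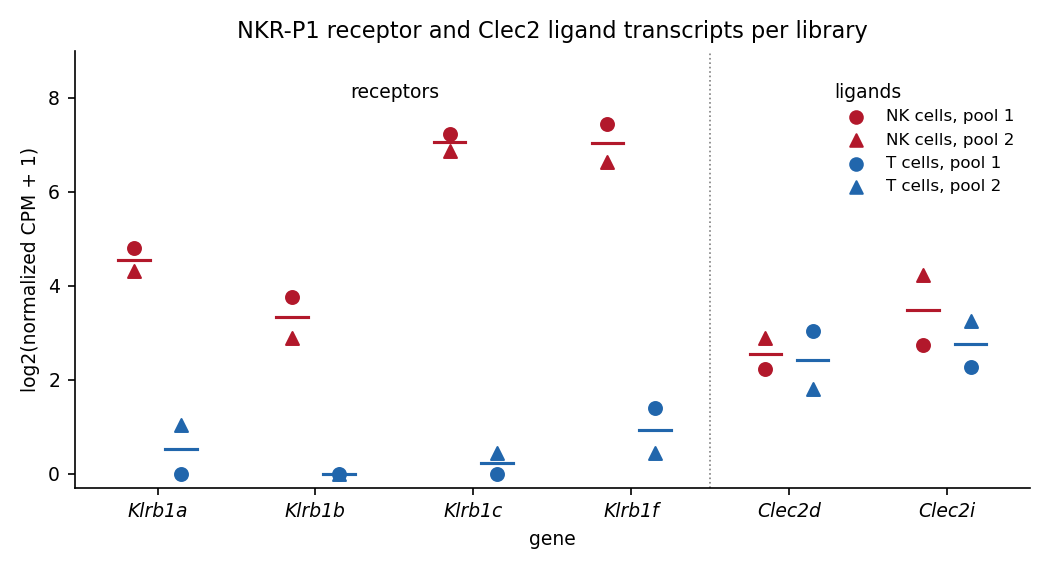
Level of each member in each library, as log2(normalized CPM + 1), with NK cells in red, T cells in blue, circles for pool 1, triangles for pool 2 and a bar at the mean of the 2 libraries. The NK libraries lie above the T libraries for the 4 receptor genes, and the cell types overlap for both ligand genes.

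Klrb1c, which encodes NKR-P1C, a stimulatory receptor that signals through the Fc receptor gamma chain, stood at 149.7 and 116.3 in NK pools 1 and 2, and at 0 and 0.35 in T pools 1 and 2. The NK values rested on 368 and 328 reads, and the T libraries held 1 read between them. The NK to T ratio of reads was 612, with an exact 95% interval of 109 to 24187.5 that covers counting error only. The log2 fold change was 6.84 (SE 0.54, adjusted p = 1.61e-04 by limma), the fourth highest of all genes tested.

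Klrb1f, the NKR-P1F receptor gene, reached 172.9 and 98.9 in the NK pools against 1.65 and 0.35 in the T pools. These values rested on 425 and 279 NK reads and on 3 and 1 T reads. Its ratio of reads was 155 (interval 60.1 to 569). The log2 fold change was 6.12 (SE 0.56, adjusted p = 3.85e-04 by limma), the fifth highest of all genes tested.

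Klrb1a, which encodes NKR-P1A, was the third receptor gene past the threshold and was less abundant. It stood at 26.8 and 18.8 in the NK pools against 0 and 1.06 in the T pools, from 66 and 53 NK reads and 0 and 3 T reads. The ratio of reads was 34.9 (interval 11.6 to 171) and the log2 fold change 4.03 (SE 0.70, adjusted p = 0.0134 by limma).

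Klrb1b, the gene of the inhibitory NKR-P1B, was the least abundant receptor gene. It stood at 12.6 and 6.38 in the NK pools, from 31 and 18 reads, and had 0 reads in both T libraries. Set against 3 reads over both T libraries together (0.647 normalized CPM), the NK level was at least 14.4-fold higher. Its log2 fold change of 3.33 (SE 0.78) had an adjusted p = 0.0595 by limma, short of the threshold. With the pool number as a replicate block the limma adjusted p was 0.00419, a fit in which 4.3% of all genes were called on the NK side and 3.98% on the T side. The SE was larger in that fit, at 0.89, while the unadjusted limma p went from 0.00152 to 0.000193. The lower p therefore did not come from a smaller SE. With edgeR the adjusted p was 0.0418, and 1.38% and 1.29% of all genes were called on those sides.

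In each of the 4 receptor genes both NK libraries lay above both T libraries, as they did in 22.1% of all genes tested. With 1 library left out, limma made no call on any gene, and the cause was not tested. In edgeR with each library left out in turn, Klrb1a, Klrb1c and Klrb1f stayed past the threshold every time (highest adjusted p = 0.00898, 8.84e-06 and 6.22e-05). Klrb1b lost the edgeR call without NK pool 1 (adjusted p = 0.215) and without T pool 2 (adjusted p = 0.0679).

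**Figure D2:**
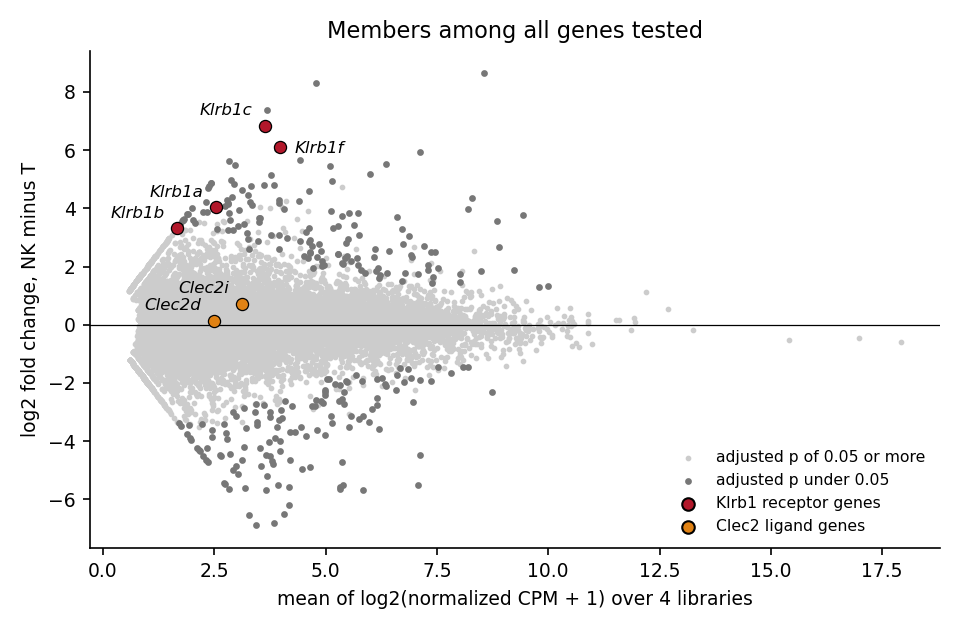
Log2 fold change (NK minus T) against mean level over the 4 libraries, as log2(normalized CPM + 1), for the 12105 genes tested, with genes past the limma threshold in dark grey. Klrb1c and Klrb1f sit near the top at 6.84 and 6.12, Klrb1a and Klrb1b lower at 4.03 and 3.33, and the ligand genes Clec2d and Clec2i near 0 at 0.14 and 0.72.

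The ligand genes were detected in every library at low counts. Clec2d, which encodes Clr-b, stood at 3.66 and 6.38 in the NK pools, from 9 and 18 reads, and at 7.16 and 2.48 in the T pools, from 13 and 7 reads. The highest and the lowest value were both in T cells, so the groups overlapped. The NK to T ratio of reads was 1.19 (interval 0.641 to 2.23), with a log2 fold change of 0.14 (SE 0.73, adjusted p = 0.962 by limma). The difference went the opposite way in the 2 pools, at -0.81 in pool 1 and 1.08 in pool 2 on the log2(value + 1) scale.

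Clec2i, which encodes Clr-g, stood at 5.69 and 17.7 in the NK pools, from 14 and 50 reads, and at 3.85 and 8.50 in the T pools, from 7 and 24 reads. The groups overlapped, and in each cell type pool 2 was above pool 1. The ratio of reads was 1.81 (interval 1.16 to 2.88), and the log2 fold change 0.72 (SE 0.70, adjusted p = 0.726 by limma). The interval covers counting error only and lay above 1, while the limma test, which takes in the spread between pools, made no call. Without NK pool 2 the log2 fold change was -0.021, and without NK pool 1 it was 1.46.

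Levels of different genes were compared per kb of annotated exon. In NK pools 1 and 2, in normalized CPM per kb, Klrb1f had 85.4 and 48.8, Klrb1c 50.6 and 39.3, and Klrb1a 16.8 and 11.8. Klrb1f and Klrb1c did not separate beyond the spread of the pools, while both lay above Klrb1a. Klrb1b (5.66 and 2.86), Clec2d (3.02 and 5.26) and Clec2i (1.83 and 5.70) overlapped one another at the bottom. Of the summed per-length level of the 4 receptor genes, Klrb1f made up 53.9% and 47.5% in NK pools 1 and 2, Klrb1c 31.9% and 38.2%, Klrb1a 10.6% and 11.5%, and Klrb1b 3.57% and 2.79%. The order of the 4 receptors was therefore the same in both pools.

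In T pools 1 and 2 the order was turned around. Clec2d had 5.90 and 2.04 normalized CPM per kb and Clec2i 1.24 and 2.73, overlapping each other, whereas Klrb1f had 0.816 and 0.175, Klrb1a 0 and 0.666, Klrb1c 0 and 0.12, and Klrb1b 0 in both. The 4 receptor genes together had 890 and 678 reads in the NK libraries and 3 and 5 in the T libraries. Per length, the summed receptors exceeded the summed ligands 32.7-fold and 9.38-fold in NK pools 1 and 2. In T pools 1 and 2 the summed ligands exceeded the summed receptors 8.75-fold and 4.97-fold. These sums take all the receptor genes, although a ligand is listed here for Klrb1b and Klrb1f only.

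The inhibitory pair, Klrb1b and its ligand gene Clec2d, had no steady order within the NK cells, with receptor above ligand in pool 1 and below it in pool 2. The per-length ratio of receptor to ligand was 1.88 in NK pool 1 (exact 95% interval 0.871 to 4.48) and 0.544 in NK pool 2 (0.267 to 1.11). Over both NK libraries it was 0.988 (interval 0.606 to 1.64), from 49 reads of Klrb1b and 27 of Clec2d. Of the 2228 exon bases of Klrb1b used as its length, 599 also lie in another gene model, Gm44511. How reads there were counted is not given, and the ratio would be too low if they were dropped. In T cells there were 0 reads of Klrb1b beside 20 of Clec2d. The exact 95% interval of the per-length ratio reached up to 0.110 there, and the limit of 3 reads alone gave 0.0817.

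The stimulatory pair, Klrb1f and its ligand gene Clec2i, was far from balance in the NK cells. Its per-length ratio was 46.6 in NK pool 1 (interval 27.5 to 86.0) and 8.57 in NK pool 2 (6.32 to 11.8), and the pools differed beyond counting error. In T cells it was 0.658 in pool 1 (0.110 to 2.88) and 0.064 in pool 2 (0.00156 to 0.392). The mean log2 ratio was 4.32 ± 1.73 in NK cells and -2.28 ± 2.38 in T cells (SD, n = 2 each), and the cell types did not overlap. The exact two-sided permutation test gave p = 0.3333, the smallest that 2 against 2 libraries allow.

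**Figure D3:**
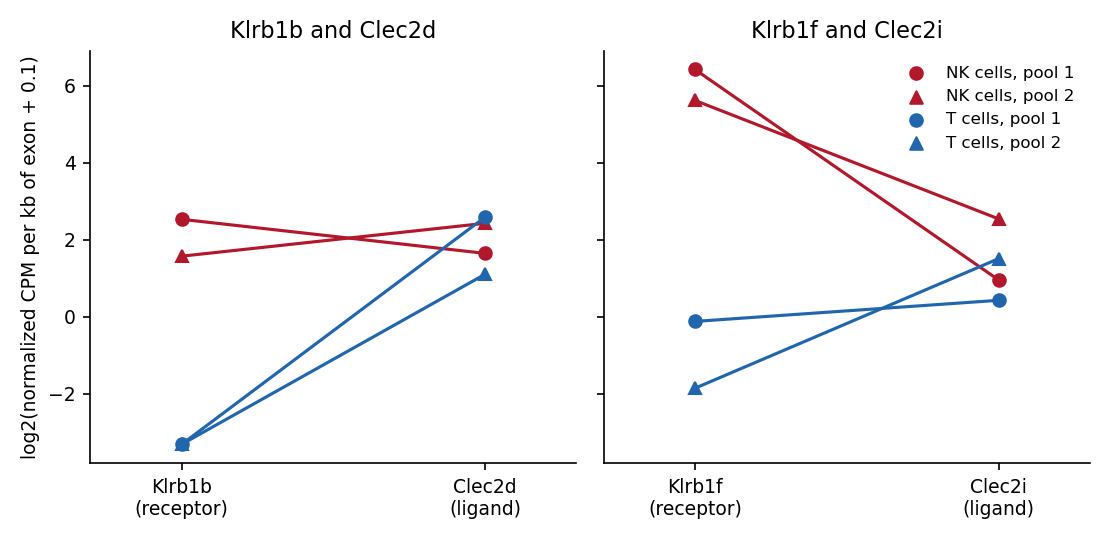
Receptor and ligand level in each library for both pairs, as log2(normalized CPM per kb of exon + 0.1), with a line joining the pair within a library (NK red, T blue, circle pool 1, triangle pool 2). The lines for Klrb1f and Clec2i run down in NK cells and up in T cells, and those for Klrb1b and Clec2d start from 0 reads in T cells.

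The rest of the gene family was close to silent in these cells. Of 9 further Klrb1 and Clec2 genes, 8 were matched by symbol and 0 passed the filter on low values. Klrb1, the gene of NKR-P1G, had 1 read in each NK library and 0 in the T libraries. Clec2l had 1 read, in T pool 2. Clec2e, Clec2f, Clec2g, Clec2h, Clec2j and Klrb1-ps1 had 0 reads in all 4 libraries. Along the chromosome, Klrb1c, Klrb1b and Clec2i followed one another, while Clec2g and Clec2f, with no reads, lay between Clec2i and Klrb1f, and Clec2e and Klrb1-ps1 between Klrb1f and Clec2d.

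**Figure D4:**
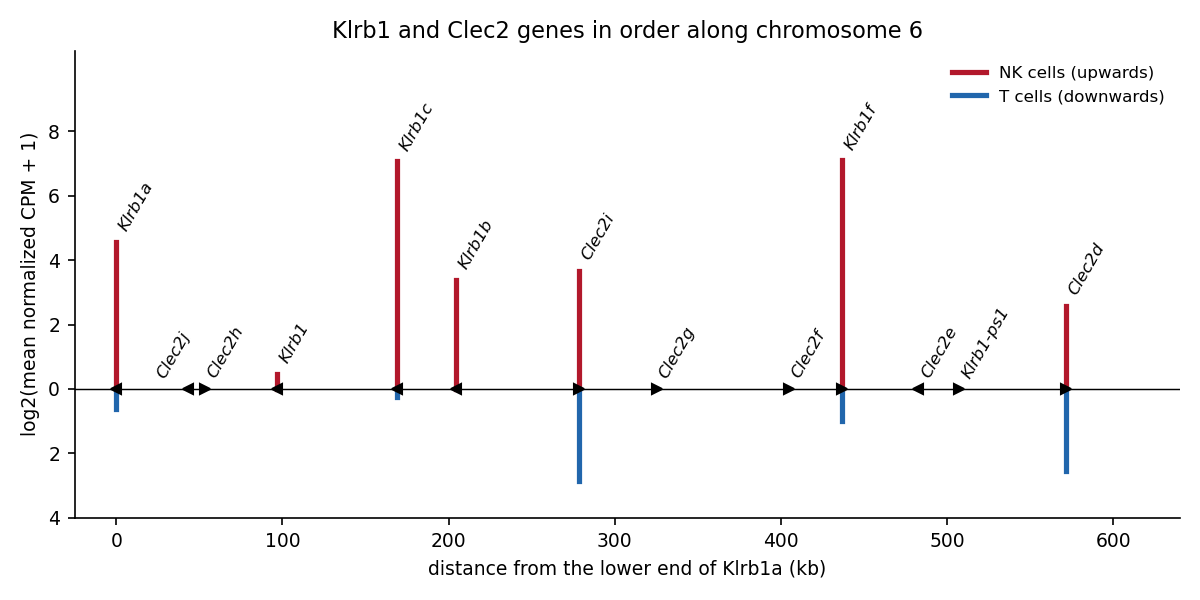
Klrb1 and Clec2 genes at their distance in kb from the lower end of Klrb1a, with the mean level in NK cells drawn upwards and in T cells downwards, each as log2(mean normalized CPM + 1), and arrowheads for the strand. Klrb1a, Klrb1c, Klrb1b and Klrb1f rise upwards with little or nothing below the line, Clec2i and Clec2d are drawn in both directions, and genes with no reads show an arrowhead alone.

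Members of a recent gene family share sequence, which limits how reads can be told apart. Coding sequences of Klrb1a and Klrb1c were 92.1% identical, those of Klrb1b and Klrb1c 86.3%, and those of Clec2d and Clec2i 86.0%. Klrb1f was more distant, at 69.9% to 73.2% from the other receptors. Among stretches of 50 bases in the annotated transcripts, 9.92% of those of Klrb1a, 27.2% of Klrb1b and 16.98% of Klrb1c also occurred in another gene, against 0% for Klrb1f, 1.98% for Clec2d and 4.13% for Clec2i. Much of the overlap is with Gm44511, a gene model on the same strand that shares exons with Klrb1c and Klrb1b and had 0 reads in all 4 libraries. It covers 599 of the 2228 exon bases of Klrb1b and 413 of the 2961 of Klrb1c. A counting rule that drops reads lying in more than 1 gene would lower both levels, and the rule used is not given. Without Gm44511, the shares were 5.77% for Klrb1b and 5.99% for Klrb1c, while that of Klrb1a stayed at 9.92%, shared with Klrb1c, Klrb1b and Klrb1-ps1. This family also differs between BALB/c and the C57BL/6 reference, and the split of reads among Klrb1a, Klrb1b and Klrb1c is uncertain to that extent.

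The genes listed as signalling partners, not all of them tied to NKR-P1 receptors, went both ways. Of 14 listed genes, all tested, 4 were higher on the NK side and 1 on the T side, with a median log2 fold change of 0.26. Over all genes tested, 1.22% and 1.09% were called on those sides by limma. Fcer1g, the Fc receptor gamma chain, stood at 396 and 368 in the NK pools against 57.3 and 57.0 in the T pools (log2 fold change 2.72, SE 0.31, adjusted p = 0.00134 by limma). Plcg2, a phospholipase downstream of such adaptors, stood at 44.3 and 52.5 against 7.71 and 3.54 (2.97, SE 0.52, adjusted p = 0.014 by limma). Tyrobp, the adaptor DAP12, stood at 379 and 388 against 22.0 and 3.90 (5.18, SE 0.60), and Sh2d1b1, the adaptor EAT-2, at 27.3 and 61.0 against 0.551 and 2.83 (adjusted p = 0.0102 by limma). Cd247, the CD3 zeta chain, was higher in T cells, at 117 and 154 against 46.4 and 28.4 (-1.86, SE 0.38, adjusted p = 0.0325 by limma). With the replicate block 5 were called on the NK side, Syk being added, beside 4.3% of all genes. Syk, a kinase that binds such adaptors, stood at 30.5 and 18.1 against 6.61 and 3.90 (adjusted p = 0.122 by limma, and 0.0102 with the block). In edgeR, Cd247 was called on all libraries but not without NK pool 2.

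The phosphatase gene Ptpn6 (SHP-1), which acts behind inhibitory NKR-P1B, stood at 70.8 and 77.6 in the NK pools and at 65.0 and 53.2 in the T pools (adjusted p = 0.752 by limma). Lck, the Src family kinase that NKR-P1C can bind, stood at 181 and 158 against 291 and 230 (adjusted p = 0.458 by limma). Fcer1g and Tyrobp are expressed by macrophages too. The summed level of 8 macrophage markers was 811 and 174 in NK pools 1 and 2 and 216 and 23.7 in T pools 1 and 2, and none of the markers was at 0 in a cell type. By limma 0 of the 8 passed (7 at an unadjusted p under 0.05), and 0 by edgeR. DESeq2 called C1qc higher in NK cells, among 213 genes it called on that side. Limma with the replicate block called 6 higher in NK cells, namely Lyz2, C1qa, C1qb, C1qc, Mrc1 and Cd68. That fit called 4.3% of all genes on the NK side. Fcer1g and Tyrobp stood at like levels in both NK pools. In the T pools Tyrobp was at 22.0 and 3.90, lower in pool 2 as the marker sum was, while Fcer1g was at 57.3 and 57.0. The part of macrophage RNA in these values was not tested.

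Of 8 other C-type lectin genes of the NK gene complex, 3 were tested and 0 passed by limma or edgeR, with a median log2 fold change of 1.35. At an unadjusted p under 0.05 Cd69 alone passed. Cd69, an activation antigen and the nearest relative of the Clec2 genes on this list, stood at 185 and 215 in the NK pools and at 490 and 285 in the T pools (log2 fold change -0.90, SE 0.34, adjusted p = 0.274 by limma, and 0.023 with the replicate block). Clec1a, Clec1b, Clec12b and Olr1 had 0 reads in all libraries.

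All 6 NK markers were higher in NK cells and all 8 T cell markers higher in T cells. The NK markers summed to 154 and 361 in T pools 1 and 2, against 12170 and 8895 in the NK pools. Most of the T pool sum was Prf1 (79.8 and 221) and Klrd1 (36.3 and 72.6), while Ncr1 stood at 0 and 1.42. Eomes (20.9 and 32.6), Gzma (16.5 and 19.5) and Klre1 (0.551 and 14.2) made up the rest. Whether NK cells gave the few receptor reads of the T libraries was not tested. Among 3 markers of innate-like T cells, which can carry NKR-P1C, Trav11 had 0 reads throughout. Zbtb16 stood at 1.22 and 5.32 in the NK pools and at 1.65 and 1.77 in the T pools (adjusted p = 0.864 by limma). Traj18, a joining segment, had 0 reads in NK cells and stood at 89.2 and 26.6 in T cells, where Klrb1c had 1 read. Of 7 tumour and stroma markers 2 were tested, and Col1a2, a collagen chain gene, was higher in NK cells, with 61 reads against 0 in T cells (adjusted p = 0.0344 by limma). Krt8, Krt18, Krt19 and Dcn had 0 reads in all libraries. Of 5 dendritic cell markers 1 was tested and of 4 neutrophil markers 2, and limma, edgeR and DESeq2 called 0 of them (0 at an unadjusted p under 0.05 by limma). The neutrophil markers summed to 20.3 and 20.9 in the NK pools and to 92.0 and 12.4 in the T pools. None of 4 B cell markers passed the filter on low values.

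The named genes nearest to each member over the 4 libraries, by Euclidean distance on the log2(value + 1) scale, among 10534 others, were a description of level and pattern together. For Klrb1c they were Tmsb15a (distance 0.83), Klra3 (1.40) and Klrb1f (1.44), and for Klrb1f they were Klrb1c (1.44), Arg1 (1.48) and Klra13-ps (1.51). Only Tmsb15a lay within 1 of Klrb1c, and no gene lay within 1 of Klrb1f. For Klrb1a they were Kctd11 (0.64), Arap3 (0.70) and Ccl7 (0.84), and for Klrb1b Rgs18 (0.38), Fam184a (0.40) and Muc20 (0.42). For Clec2d they were Naglu (0.25), Acvr2a (0.27) and Eef1akmt4 (0.36), with 146 genes within 1. For Clec2i they were Blcap (0.20), Sh3bp5l (0.34) and Rdh10 (0.39), with 69 genes within 1.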

How the data were processed

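RNA sequencing libraries of sorted NK and T cells (2 pools each) were deposited as 1 table whose 4 value columns, 1 for each library, hold a normalized signal per the file headers. STAR 2.7.0f, Bowtie2 2.3.4.1, FastQC and limma, with the build GRCm38.p6, are listed without roles in the submitters' processing notes. The sources used here do not give the counting tool, the strand setting or the method of normalization. Every non-zero value was a whole multiple of the smallest in its library within 0.001 reads (100%), which gave 2067728 to 2893240 reads per library and a value of 0.354 to 0.551 normalized CPM per read. Implied library factors were 0.878 to 1.10, as TMM gives from the reads. Rows without a gene name held 0.0198% to 0.0214% of reads and were left out, and 27 symbols turned into dates were restored.

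Genes with a mean of at least 1 were tested with limma 3.58.1 in R 4.3.3 on log2(value + 1), with a trend in the spread and Benjamini-Hochberg adjustment over 12105 genes at 0.05. Reads were also tested with edgeR 4.0.16 and DESeq2 1.42.0. The design text ties each replicate number to a pool of mice, so the numbers were taken to pair the libraries (correlation of pool differences across genes 0.162). The main fit has no block, as no source states one. The blocked fit has 1 residual degree of freedom, so its p-values rest mainly on the spread shared across genes. Named genes were all members, measured family genes, listed partners past the threshold (at most 4 a list by fold) and the 3 nearest genes per member. Cd247, Ptpn6, Lck, Syk, Zbtb16, Traj18, Col1a2, Epcam, Col1a1 and the macrophage markers were added after their values were seen. Members and lists were chosen with earlier results of these data known. Exon lengths come from GENCODE M21 (GRCm38) and promoters from RefSeq (GRCm38.p6), with all 6 members matched.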

Additional observations from a re-analysis of the deposited data

How the results depend on the processing

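With the replicate block, limma called 520 genes on the NK side and 482 on the T side, in place of 148 and 132, and 1 lectin gene (Cd69) higher in T cells in place of 0. The members called were then 4 in place of 3, Klrb1b being added, and no other member's call changed. Signalling partners called on the NK side were 5 in place of 4 (Syk added), and macrophage markers 6 in place of 0. How far the calls added by the block come from the pairing was not tested. DESeq2 called 217 genes on the T side. With a library left out, limma called 0 genes, 0 members and 0 signalling partners (677 to 1753 genes at an unadjusted p under 0.05). EdgeR with a library left out, an alternative chosen after seeing the data, called 226 and 207 genes (NK and T side) without NK replicate 2, 247 and 204 without T replicate 1, and 266 and 218 without T replicate 2. In it 0 signalling partners were higher in T cells without NK replicate 2, and 1 lectin gene was called without T replicate 1 (NK side) and without T replicate 2 (T side).

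The sign of the ligand genes rested on single libraries. With limma the log2 fold change of Clec2d ranged from -0.48 (without T replicate 2) to 0.75 (without T replicate 1), and was -0.19 without NK replicate 2. That of Clec2i ranged from -0.021 (without NK replicate 2) to 1.46 (without NK replicate 1). EdgeR gave -0.36 for Clec2d and -0.14 for Clec2i without NK replicate 2, and -0.51 for Clec2d without T replicate 2. Neither ligand was called in any setting, and the cause was not tested. The 4 receptor genes stayed positive in every setting run. With a filter at a mean of 5, Klrb1b and Clec2d were not tested. The log2 receptor to ligand ratios moved by less than their SD with value + 1. With the longest transcript lengths, that of Klrb1f to Clec2i was 4.40 in NK cells and -2.20 in T cells, also within the SD. For Klrb1b and Clec2d those lengths equal the exon lengths used, so that ratio could not move with them. From single libraries, Klrb1b to Clec2d in NK cells changed sign, from -0.88 to 0.91 (0.015 over both, -0.10 with value + 1), and Klrb1f to Clec2i ran from 3.10 to 5.54 in NK cells and from -3.97 to -0.60 in T cells. Klrb1b to Clec2d in T cells has no log2 ratio, since Klrb1b had 0 reads there. At 7 to 50 reads per library, the depth limits what can be said of the ligands.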
